A study of Ovis aries with 3 samples.

Results

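Collagen genes were followed across the stroma and the epithelium of the rumen of Hu sheep lambs in 3 droplet-based single-cell RNA libraries. All rows of the deposited gene lists with a symbol made of COL, a number, A and a number were taken, except COL17A1, a transmembrane collagen of basal keratinocytes. This gave 37 collagen genes of 26247 rows. All lambs were 42 days of age, and the libraries came from rumen epithelium after milk only, milk with alfalfa hay, or milk with concentrate starter, with 1 library per diet. The labels do not say how many lambs went into a library. With 1 library per diet there was no replicate and no test of a difference between diets. Levels are unique molecular identifiers (UMIs, each standing for 1 captured transcript) summed over the cells of a class and given per 1000000 UMIs of that class (CPM). Intervals are exact 95% intervals and cover counting error only.

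Collagens are the main structural proteins of the extracellular matrix. Fibrillar collagens form the cables of connective tissue, type IV chains form the sheet of the basement membrane on which an epithelium or a vessel rests, and fibril-associated collagens sit on the surface of fibrils. In the rumen wall a stratified squamous epithelium lies on a basement membrane above a papillary stroma of fibroblasts and vessels.

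The libraries held 7032 barcodes for milk only, 9543 for hay and 9214 for concentrate, with 56861548 to 63057979 UMIs each. After filtering, 3850, 7031 and 4891 cells remained, with median depths of 11021, 5887 and 8050 UMIs. Barcodes shared by pairs of libraries numbered 17 for milk only and hay, 15 for milk only and concentrate, and 28 for hay and concentrate. Collagen genes were left out of the clustering and of the naming of cells, so that they did not choose the cells in which they were then measured. Of these cells, 3431 (milk only), 6998 (hay) and 4685 (concentrate) were keratinocytes.

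The 57 fibroblast-like cells all came from the concentrate library, where they were 1.17% of cells (0.884 to 1.51%). No fibroblast-like cell was found among 3850 milk-only cells or 7031 hay cells, which allows shares of up to 0.0958% and 0.0525%. With the collagen genes kept in clustering, or at resolution 1.2, 1 hay cell joined the fibroblast cluster, and hay against milk only then no longer counted COL1A2 and COL3A1 as higher. All 11 fibroblast markers were detected in these cells, with DCN at 12535 CPM, LUM at 715 CPM and PDGFRA at 242 CPM. The T or NK markers were at 0 for 10 of 10 genes. Of 9 pericyte or smooth muscle markers, 6 had UMIs, with a summed level of 59.1 CPM, and RGS5, MYH11 and NOTCH3 were at 0. KRT15, a basal keratin, stood at 976 CPM in the fibroblast-like cells and at 7880.2 CPM in the keratinocytes of the same library. The endothelial-like cells numbered 59 in the concentrate library and 3 in the milk-only library, with 0 in hay. All 13 endothelial markers listed in the files were detected in the 59 cells, with PECAM1 at 2335 CPM, MMRN1 at 1766 CPM and LYVE1 at 1081 CPM. The lymphatic markers PROX1 and CCL21 were at 223 and 94.7 CPM. The cells were released by repeated trypsin-EDTA digestion, and how many stromal cells the tissue held and how many the digestion released cannot be told apart. With stromal cells almost only in the concentrate library, stromal levels were not compared across diets.

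Of the 37 collagen genes, 34 had at least 1 UMI in a kept cell. COL2A1 (cartilage fibrils), COL10A1 (hypertrophic cartilage) and COL22A1 (tissue junctions) had 0 UMIs in every barcode. In keratinocytes, 13 genes reached 1 CPM in some library, and 14 genes had at least 20 UMIs in the fibroblast-like or endothelial-like cells. The 2 sets shared 9 genes, and 19 genes reached neither level. The highest keratinocyte level among these 19 was 0.716 CPM, of COL26A1 in the milk-only library. The files' symbols did not include COL6A1, COL7A1, COL8A2, COL9A3, COL19A1 or COL20A1, which were not analysed here.

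Summed over all 37 genes, collagen UMIs stood at 54249 CPM (53145 to 55371) in the fibroblast-like cells. The endothelial-like cells of the same library held 1945 CPM (1746 to 2160). Keratinocytes held 248 CPM (244 to 253) in the milk-only, 118 CPM (115 to 122) in the hay and 194 CPM (190 to 198) in the concentrate library. Immune cells were lowest, with 55.4 CPM (44.4 to 68.3) in 109 macrophage or dendritic-like cells and 13.0 CPM (8.04 to 19.8) in 307 T or NK-like cells of the milk-only library. The 3 endothelial-like cells of the milk-only library held 51 collagen UMIs, which is 1868 CPM (1391 to 2456).

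**Figure D1:**
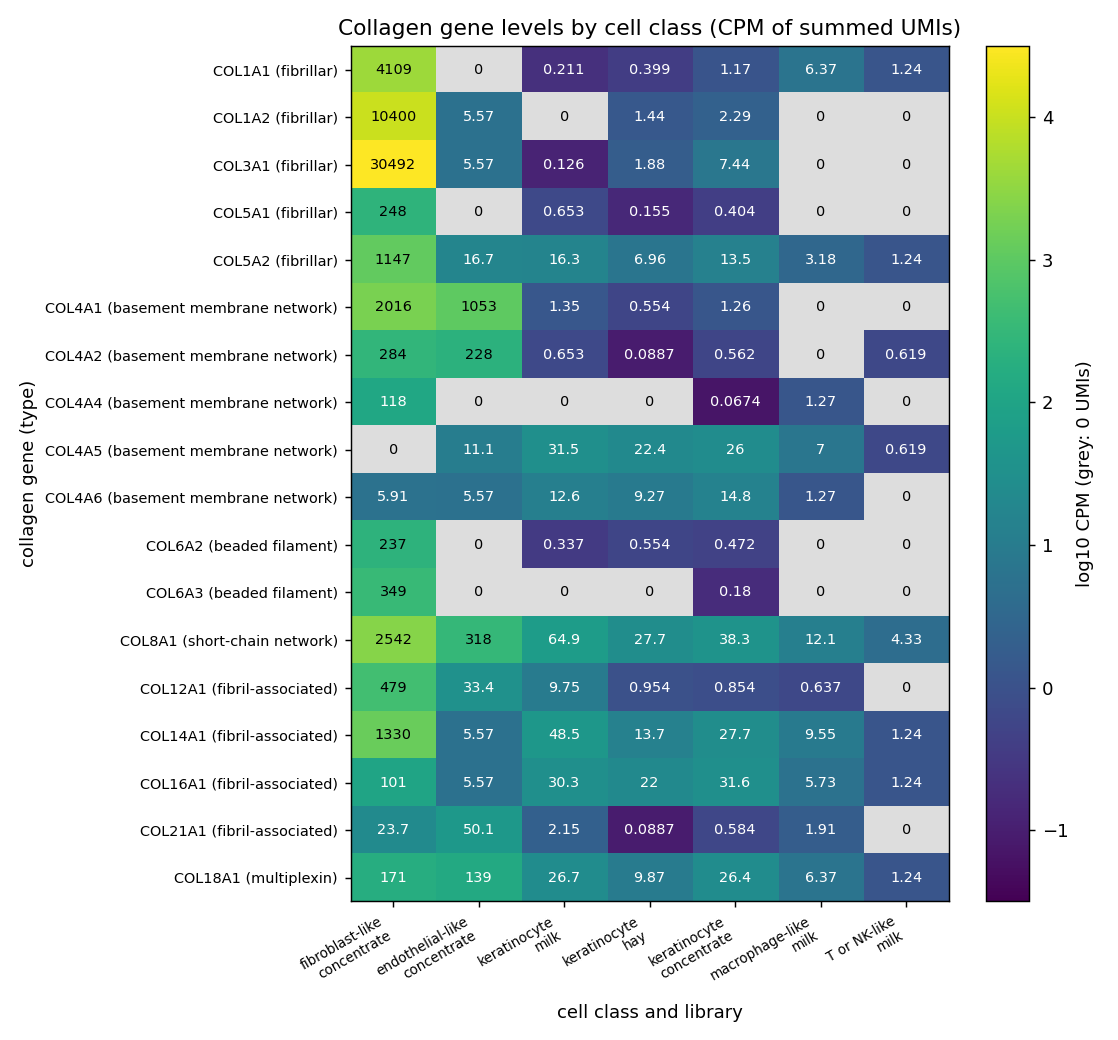
Levels of the 18 collagen genes that reached 1 CPM in keratinocytes or 20 UMIs in stromal cells, by cell class and library. Each tile gives the CPM of summed UMIs and is coloured by log10 CPM, with grey for 0 UMIs. COL3A1 stood at 30492 CPM in the fibroblast-like cells and at 0.126 to 7.44 CPM in keratinocytes, while COL4A5 was at 0 in the fibroblast-like cells and at 22.4 to 31.5 CPM in keratinocytes.

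The 3 classes differed in which collagen types made up their collagen UMIs. In the fibroblast-like cells, fibrillar collagens took 85.7% of collagen UMIs (84.9 to 86.4%). In the endothelial-like cells of the concentrate library, type IV chains took 66.8% (61.6 to 71.7%) and fibrillar collagens 1.72% (0.633 to 3.70%). In keratinocytes, fibril-associated collagens took 36.5%, 31.1% and 31.3% with milk only, hay and concentrate. The short-chain network collagen COL8A1 followed in milk-only keratinocytes with 26.1%, against 23.4% with hay and 19.8% with concentrate. Type IV chains took 18.6%, 27.3% and 21.996%. These are shares of transcripts and not of protein.

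**Figure D2:**
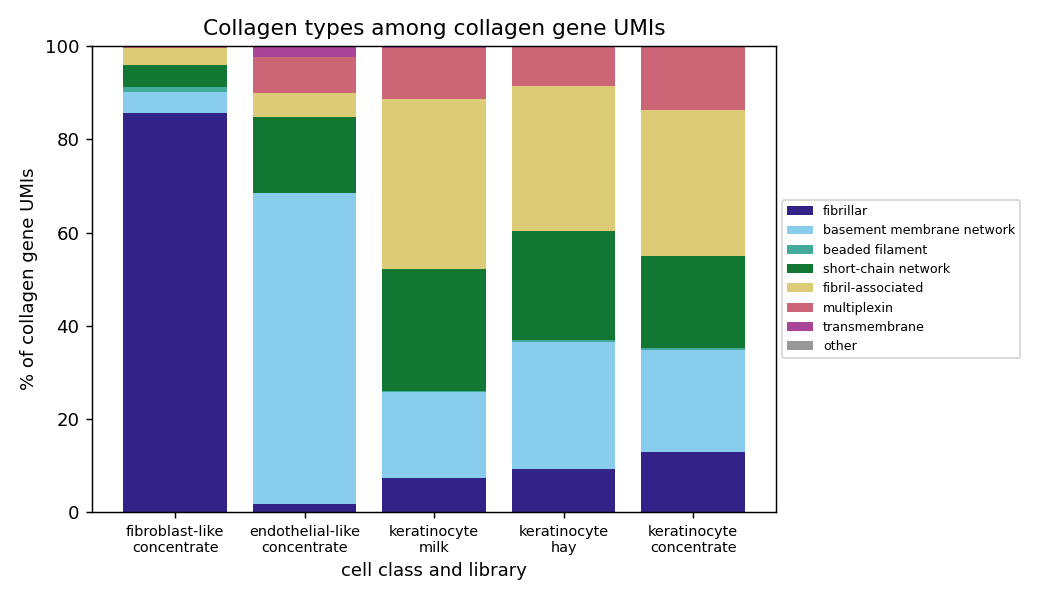
Collagen types as shares of the collagen UMIs of a class (stacked bars, in %), for the fibroblast-like and endothelial-like cells of the concentrate library and the keratinocytes of each library. Fibrillar collagens took 85.7% in fibroblast-like cells, and type IV chains (basement membrane network) took 66.8% in endothelial-like cells.

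Fibroblast-like cells were compared with keratinocytes of the same library for genes with at least 20 UMIs in both classes together. A gene was counted as higher or lower when its observed levels differed at least 2-fold with an interval that excluded 1. A count of 0 met the 2-fold rule by its observed level, also where the lower bound of the fold, with 0 set to 3 UMIs, was under 2. Of 18 collagen genes measured, 16 were higher in the fibroblast-like cells and 1 was lower. Over all 10361 genes measured, 15.1% were higher and 4.83% were lower. The median log2 ratio of the 18 genes was 8.98, and that of all measured genes was 1.43. In both medians a count of 0 was set to 3 UMIs, which is 17.7 CPM in the smaller class, so the median of all genes is raised by genes with few UMIs. Genes that are seen mainly in the fibroblast-like cells, such as COL4A4, passed the minimum through those cells. The fibroblast-like sum was 169127 UMIs against 44513966 in keratinocytes, so a low level is seen less easily in the fibroblast-like cells.

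The 3 largest ratios were those of COL1A2, COL3A1 and COL1A1. COL3A1, a fibril chain of extensible tissue, stood at 30492 CPM in the fibroblast-like cells and at 7.44 CPM in the keratinocytes, a ratio of 4101 (3669 to 4597). The ratio was 4539 (3716 to 5598) for COL1A2 and 3518 (2652 to 4757) for COL1A1, the chains of type I collagen, the main collagen of connective tissue. These 3 genes were not spread evenly over the keratinocytes, as described with the diets. COL5A1 and COL5A2, the chains of the type V collagen that starts fibrils, were at 248 and 1147 CPM in the fibroblast-like cells. The ratio was 614 (346 to 1133) for COL5A1 but 85.0 (71.9 to 100.05) for COL5A2, which keratinocytes held at 13.5 CPM.

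Cell by cell, the fibrillar genes were found throughout the 57 fibroblast-like cells. COL3A1 had 17 to 377 UMIs per cell with a median of 74, and COL1A2 had 5 to 134 UMIs with a median of 26. COL1A1 was detected in 56 cells, with a median of 10 UMIs. All collagen genes together took 1.55 to 17.04% of the UMIs of a cell, with a median of 4.54%. The cell with most collagen UMIs held 6.77% of the class's total. COL3A1 was detected in all 57 cells, COL14A1 in 53, COL4A1 in 52, COL8A1 in 51 and COL5A2 in 50.

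The non-fibrillar genes covered a wide range of ratios. Among the type IV chains, COL4A1 was at 2016 CPM in the fibroblast-like cells and 1.26 CPM in keratinocytes, a ratio of 1603 (1205 to 2166). COL4A2, its partner in the common network form, was at 284 CPM, and COL4A4 was at 118 CPM from 20 UMIs. COL6A2 and COL6A3, of the beaded filaments around fibrils, were at 237 and 349 CPM, against 0.472 and 0.180 CPM in keratinocytes. COL12A1 and COL14A1, fibril-associated collagens, were higher by ratios of 561 (377 to 848) and 48.0 (41.4 to 55.3). COL8A1, known from the membranes under corneal and vascular endothelium, was at 2542 CPM, a ratio of 66.3 (59.5 to 73.7).

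The smallest positive ratios were those of COL18A1, COL16A1 and COL21A1. COL18A1, a proteoglycan collagen of basement membranes, was at 171 CPM in the fibroblast-like cells and 26.4 CPM in keratinocytes, a ratio of 6.51 (4.34 to 9.40). COL16A1, which links fibrils and basement membranes, had a ratio of 3.18 (1.85 to 5.11). COL21A1 had 4 UMIs in the fibroblast-like cells and a ratio of 40.5 (10.3 to 117). COL4A5 and COL4A6 encode the type IV chains of epithelial basement membranes and are neighbours on the chromosome in the RefSeq table (assembly ARS-UI_Ramb_v3.0). COL4A5 had 0 UMIs in the fibroblast-like cells and 1157 in keratinocytes. It was counted as lower on its count of 0, but with 0 set to 3 UMIs the bound is only at least 1.47-fold lower. With cells of at least 1000 genes only, the log2 ratio of COL4A5 was 0.10 and it was not counted, nor was it counted in cells of at least 2263 UMIs. COL4A6 had 1 UMI against 659, a level 2.50-fold lower (0.448 to 99.04), which was not counted.

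Endothelial-like cells were compared with keratinocytes of the concentrate library in the same way. Of 15 collagen genes measured, 6 were higher (COL4A1, COL4A2, COL8A1, COL12A1, COL18A1 and COL21A1) and 1 was lower (COL16A1). Over all 10331 genes measured, 15.9% were higher and 4.12% lower, and the medians of the log2 ratios were 2.40 for the collagen genes and 1.40 for all genes. Here too a count of 0 was set to 3 UMIs, which is 16.7 CPM in the endothelial-like cells. Collagen genes with 0 UMIs there, such as COL1A1 and COL6A2, thus entered with a positive ratio. Both medians are raised in this way, and they do not show that the collagen genes as a set were higher. COL4A1 stood at 1053 CPM, a ratio of 837 (618 to 1149), and COL4A2 at 228 CPM, a ratio of 407 (242 to 698). COL18A1 was at 139 CPM, a ratio of 5.29 (3.41 to 7.84), and COL21A1 at 50.1 CPM from 9 UMIs, a ratio of 85.9 (35.4 to 189). COL12A1 had 6 UMIs and a ratio of 39.2 (13.5 to 93.4), and was no longer counted with at least 1000 genes per cell or in cells of at least 2263 UMIs. COL16A1 had 1 UMI and was 5.67-fold lower (1.02 to 224), a difference that was lost with cells of at least 1000 genes. With scaling by the median of ratios in place of the UMI totals, 6 genes were higher and 3 lower, with COL4A5 and COL14A1 added to COL16A1. That scaling moved ratios of this comparison by -0.72 on the log2 scale, and it turned the direction of COL5A2, which was counted under neither scaling.

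The endothelial-like collagen UMIs were less evenly spread over cells. COL4A1 was detected in 44 of 59 cells, with 0 to 36 UMIs and a median of 2. COL8A1 was detected in 14 cells, and 1 cell held 31 of its 57 UMIs, which is 54.4%. All collagen genes together took a median of 0.164% of a cell's UMIs, up to 2.21%. COL1A1 was at 0, and COL1A2 and COL3A1 had 1 UMI each, so type I and type III collagen were not detectable above that in this class at this depth. COL23A1, a transmembrane collagen, was below the minimum with 7 UMIs in the endothelial-like cells of the 9 found in all kept cells.

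Set against each other, the 2 stromal classes differed in fibrillar, beaded-filament and fibril-associated genes, while COL4A1, COL4A2 and COL18A1 did not reach 2-fold and COL4A4 was counted as higher. Of 14 collagen genes measured, 11 were higher in the fibroblast-like cells and 0 were lower, against 15.2% higher and 13.9% lower over all 2046 genes measured. The median log2 ratio was 3.87 for the collagen genes and -0.12 for all genes. COL1A1, with 695 UMIs against 0, was at least 246-fold higher. COL3A1, with 5157 UMIs against 1, was higher by a ratio of 5472 (982 to 216194). COL14A1 was higher by a ratio of 239 (42.4 to 9472) from 225 UMIs against 1, and COL8A1 by a ratio of 8.00 (6.06 to 10.7). COL4A1 had a ratio of 1.91 (1.60 to 2.299), COL4A2 of 1.24 (0.802 to 1.93) and COL18A1 of 1.23 (0.696 to 2.19). Under median-of-ratios scaling COL4A1 passed 2-fold and 12 genes were higher. With at least 1000 genes per cell, and in cells of at least 2263 UMIs, COL4A1 and COL4A2 passed 2-fold and COL4A4 no longer did. Of the 11 genes, all but COL8A1 reached the minimum of 20 UMIs only through the fibroblast-like cells, so their count had to go that way.

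Genes that make, bind and break down collagen were described from 5 lists, whose counts stand against the 15.1% of all genes that were higher and 4.83% lower in fibroblast-like cells than in keratinocytes. Of 19 measured genes for making collagen, 15 were higher in the fibroblast-like cells than in keratinocytes and 0 were lower. PCOLCE, an enhancer of procollagen processing, was at 2702 CPM against 2.99 CPM, a ratio of 904 (744 to 1105). PCOLCE2 had 27 UMIs against 0, at least 2369-fold higher. Of 11 measured genes for cross-linking and fibril partners, 10 were higher, among them FN1 (fibronectin) at 473 CPM against 0.0674 CPM and SPARC, a collagen-binding protein, at 1691 CPM against 0.382 CPM. DCN, LUM, SPARC, LOX and FBLN1 of that list also served to name the class, so their higher level is no independent result. Of 9 breakdown genes, 7 were higher, with FAP at 609 CPM from 103 UMIs and MMP2, a gelatinase, at 136 CPM from 23 UMIs. Some listed genes, such as PCOLCE2 and FN1, reached the UMI minimum only through the fibroblast-like cells. Such genes could be counted as higher but not as lower, and their number in each list is not given here. The counts of higher genes in these lists are therefore raised by the way genes were selected.

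Of 11 basement membrane partners, 6 were higher and 1 was lower in the fibroblast-like cells. LAMA2, a laminin chain, had 32 UMIs against 2 in keratinocytes, and NID1, which joins laminin to type IV collagen, had 23 against 1. Both genes reached the UMI minimum only through the fibroblast-like cells, so neither could be counted as lower. Of 6 collagen receptors, 1 was higher and 1 lower. ITGA2, the collagen-binding integrin chain of epithelium, had 1 UMI in the fibroblast-like cells and 59.9 CPM in keratinocytes, 10.1-fold lower (1.82 to 400.4).

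In the endothelial-like cells, 6 of 10 measured basement membrane partners were higher than in keratinocytes and 1 was lower, where 15.9% of all genes were higher and 4.12% lower. NID2 had 32 UMIs against 1, and LAMA4, the laminin chain of vessel walls, was at 446 CPM against 0.270 CPM. NID2 reached the UMI minimum only through the endothelial-like cells, and genes of this kind could not be counted as lower. LOXL2, an enzyme that cross-links type IV collagen, was at 94.7 CPM, a ratio of 351 (158 to 806). TIMP3, an inhibitor of matrix proteases, was at 1153 CPM, a ratio of 82.8 (70.4 to 97.1). CD44, a receptor for hyaluronan that also binds collagen, had 2 UMIs against 12711, 25.6-fold lower (7.09 to 212).

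In keratinocytes the diets were compared for the 13 collagen genes that reached 1 CPM in some library. For 7 of them the order was milk only highest, hay lowest and concentrate between, whereas COL1A1, COL1A2 and COL3A1 had the lowest level with milk only. Against milk only, hay had 2 genes higher and 7 lower, where 2.2% of all 9541 measured genes were higher and 15.6% lower. The median log2 ratio was -1.22 for the collagen genes and -0.27 for all genes. Concentrate against milk only had 3 genes higher and 2 lower (3.86% and 9.72% of all genes), with medians of -0.10 and -0.02. Concentrate against hay had 6 genes higher and 0 lower (7.44% and 0.859% of all genes), with medians of 0.96 and 0.23. The 3 comparisons share libraries and are not independent of each other. A gene that reached 1 CPM on 1 side of a comparison alone could not be counted the other way. This held for every gene counted in concentrate against milk only (COL1A1, COL1A2, COL3A1, COL12A1 and COL21A1). In hay against milk only it held for COL1A2, COL3A1, COL4A1, COL12A1 and COL21A1, and in concentrate against hay for COL1A1 and COL4A1. The shares over all genes used the same minimum. Median-of-ratios scaling moved the ratios of hay against milk only by 0.29 and those of concentrate against hay by -0.25 on the log2 scale. Under it, hay against milk only had 3 genes higher and 4 lower, because COL1A1 was added as higher and COL4A1, COL5A2 and COL8A1 no longer reached 2-fold. Of the 18 COL1A1 UMIs with hay, 17 lay in 1 cell. At resolution 1.2, where 1 hay cell joined the fibroblast cluster, COL1A1 was instead counted as lower with hay. Concentrate against hay then had 4 genes higher and 0 lower, without COL4A1 and COL14A1. Only COL18A1 (concentrate against milk only) and COL4A5 (concentrate against hay) changed direction under that scaling, and neither had reached 2-fold.

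**Figure D3:**
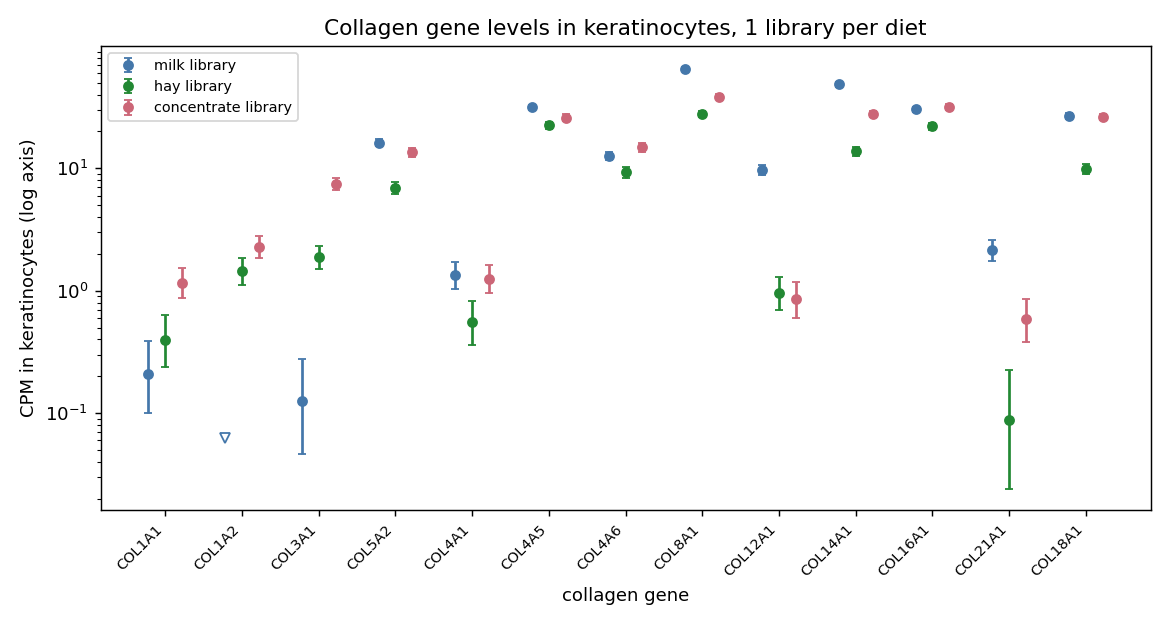
Levels of 13 collagen genes in keratinocytes of each library, as CPM of summed UMIs on a log axis. Points are the 3 libraries, bars are exact Poisson 95% intervals (counting error only), and the open triangle marks 0 UMIs, drawn at the level of 3 UMIs. COL12A1 was highest in the milk-only library, with 9.75 CPM against 0.954 (hay) and 0.854 CPM (concentrate).

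The short-chain collagen COL8A1 was at 64.9 CPM (milk only), 27.7 CPM (hay) and 38.3 CPM (concentrate). Hay was 2.35-fold lower than milk only (2.20 to 2.51), and concentrate 1.69-fold lower (1.60 to 1.80), under the 2-fold limit. COL8A1 was detected in 45.1% of milk-only keratinocytes (1546 of 3431), 14.8% of hay and 26.7% of concentrate keratinocytes. After each cell was thinned to 2000 UMIs, with 219, 0 and 69 shallower cells left out, the shares were 13.4% (12.3 to 14.7%), 5.36% (4.84 to 5.91%) and 8.71% (7.91 to 9.56%). The order of the 3 libraries was the same in both measures.

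Among the fibril-associated collagens, 3 of 4 were at least 2-fold lower with hay than with milk only. COL14A1 was at 48.5, 13.7 and 27.7 CPM with milk only, hay and concentrate. COL12A1, a fibril-associated collagen of dense connective tissue, was at 9.75, 0.954 and 0.854 CPM, so that hay was 10.2-fold lower than milk only (7.47 to 14.3) and concentrate 11.4-fold lower (8.19 to 16.3). Hay and concentrate did not differ beyond counting error for COL12A1, with a ratio of 0.895 (0.563 to 1.42). COL21A1 was at 2.15, 0.0887 and 0.584 CPM, 24.2-fold lower with hay than with milk only (9.17 to 90.5) from 4 against 102 UMIs. COL16A1 was at 30.3, 21.98 and 31.6 CPM and stayed within 2-fold in each comparison.

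The epithelial type IV chains stayed within 2-fold. COL4A5 was at 31.5, 22.4 and 26.0 CPM, and COL4A6 at 12.6, 9.27 and 14.8 CPM. COL4A1 was at 1.35, 0.554 and 1.26 CPM from 64, 25 and 56 UMIs. It was 2.43-fold lower with hay than with milk only (1.51 to 4.03) and 2.27-fold higher with concentrate than with hay (1.39 to 3.80). An alternative set left out keratinocytes with a stromal marker UMI, that is a UMI of LUM, DPT, PDGFRA, PDGFRB, PECAM1, MMRN1, LYVE1, VWF or CDH5. Other fibroblast and endothelial markers, such as DCN and SPARC, were not used for this. In that set COL4A1 with concentrate was at 0.782 CPM and with hay at 0.517 CPM, and the 2-fold difference was lost. COL18A1 was at 26.7, 9.87 and 26.4 CPM, so that hay alone stood apart, 2.71-fold lower than milk only (2.43 to 3.03) and 2.67-fold lower than concentrate (2.39 to 2.98). COL5A2 was at 16.3, 6.96 and 13.5 CPM, 2.33-fold lower with hay than with milk only (2.04 to 2.67).

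The main fibrillar genes behaved differently from the rest, since few cells held them. COL3A1 had 6 UMIs in milk-only, 85 in hay and 331 in concentrate keratinocytes, or 0.126, 1.88 and 7.44 CPM. COL1A2 had 0, 65 and 102 UMIs, and COL1A1 had 10, 18 and 52. In the hay library a single cell held 156 of the 168 UMIs of these 3 genes. It had 7816 UMIs in all, with 46 UMIs of DCN, 27 of KRT15 and 3 of COL17A1. In the concentrate library 1 cell held 285 of 485 UMIs, and the 5 highest cells held 84.7%. In the milk-only library the 16 UMIs lay in 14 cells.

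Without the highest cell of each library, the fibrillar levels fell. COL3A1 was then at 0.126, 0.155 and 3.28 CPM, COL1A2 at 0, 0.0887 and 0.742 CPM, and COL1A1 at 0.168, 0.0222 and 0.472 CPM with milk only, hay and concentrate. The hay calls of COL1A2 and COL3A1 were lost without 1 hay cell, and COL3A1 alone of the 3 genes kept its call in concentrate against milk only. COL1A2 and COL1A1 were then under 1 CPM in every library and no longer measured, which is why their calls were lost. Their levels were still higher with concentrate than with milk only, with 33 UMIs against 0 for COL1A2 and 21 against 8 for COL1A1. Concentrate against milk only then had 1 gene higher and 2 lower of 11 measured. Leaving out the 97, 75 and 92 keratinocytes with a UMI of the stromal marker genes listed above, DCN not among them, gave COL3A1 at 0.132, 0.157 and 2.25 CPM. COL1A2 then had 2 UMIs with hay against 0 with milk only, too few to give a direction.

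**Figure D4:**
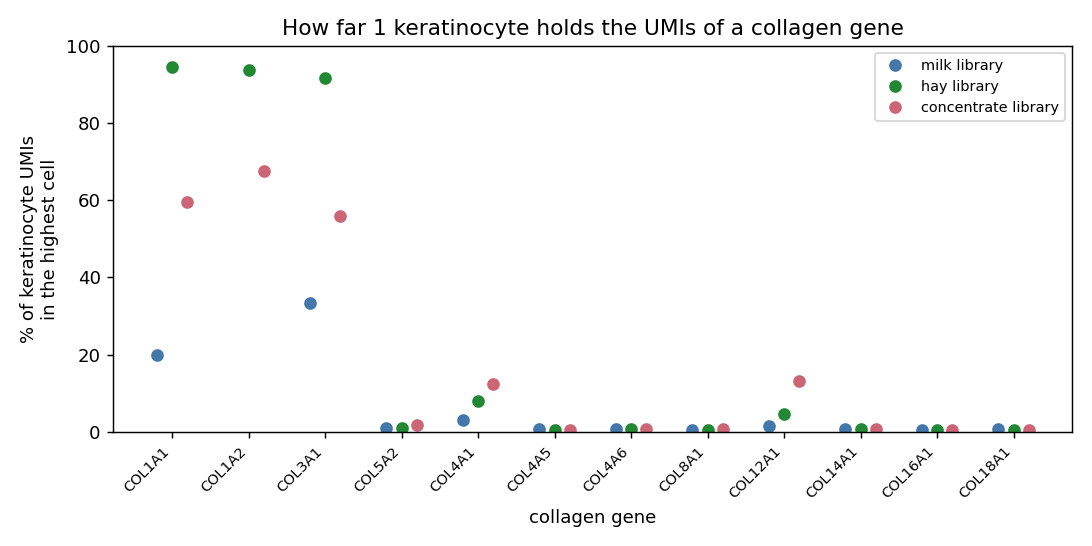
Percentage of the keratinocyte UMIs of a collagen gene that the single highest cell of a library held, for 12 collagen genes (points, 1 per library with at least 1 UMI). COL1A1, COL1A2 and COL3A1 stood at 91.8 to 94.4% in the hay library and 55.9 to 67.6% in the concentrate library, and COL8A1 was under 1% in each.

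The proportions of the 3 fibrillar genes are given side by side. In the fibroblast-like cells COL1A1, COL1A2 and COL3A1 took 9.13%, 23.1% and 67.8% of their joint UMIs. In concentrate keratinocytes they took 10.7%, 21.0% and 68.2%, and without the highest cell 10.5%, 16.5% and 73.0% of 200 UMIs. In hay keratinocytes, where 1 cell set the values, COL3A1 took 50.6% and COL1A2 38.7%. Whether the UMIs in concentrate keratinocytes came from free RNA, from cells captured together or from the keratinocytes was not tested. Doublets were not removed.

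The milk-only keratinocytes also held DCN, which encodes the fibril-binding proteoglycan decorin, at 168 CPM, against 3.93 CPM with hay and 25.3 CPM with concentrate. In these milk-only cells LUM, DPT and PDGFRA were at 0, and no fibroblast-like cell was found in that library. The summed level of the 11 fibroblast markers in keratinocytes was 178 CPM (milk only), 5.99 CPM (hay) and 31.0 CPM (concentrate), with 8, 9 and 11 markers detected.

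Immune cells also held collagen and keratin UMIs. Their source was not tested. In the macrophage or dendritic-like cells of the milk-only library, the collagen genes together were at 22.3% (17.9 to 27.5%) of the keratinocyte level, and KRT15 was at 17.7% (16.9 to 18.4%). COL8A1 was at 18.6% (11.2 to 29.2%) and COL14A1 at 19.7% (11.01 to 32.6%). In T or NK-like cells of that library the collagen genes were at 5.23% (3.24 to 8.00%) and KRT15 at 4.94% (4.56 to 5.34%). In the same macrophage-like cells COL1A1 had 10 UMIs in 7 of 109 cells, or 6.37 CPM, against 0.211 CPM in keratinocytes, while COL1A2 and COL3A1 were at 0. The summed collagen level of keratinocytes thus stood above that of the immune cells of the milk-only library, while COL1A1 was higher in the macrophage-like cells. In hay and concentrate the immune cells held 0 to 3 collagen UMIs per class, too few to compare.

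Keratinocytes fell into 10 clusters, and the clusters that held most of them differed between libraries. Milk-only cells lay mainly in clusters 3, 6 and 7, hay cells in clusters 0, 2, 4 and 5, and concentrate cells in clusters 1, 2 and 8. Diet and cluster therefore overlap. Cluster 7, the differentiated one with the cornification gene CNFN leading, and cluster 9, of 443 cells with a median of 2745 UMIs and 0.560% mitochondrial UMIs, were low in collagens. COL8A1 was at 3.74 CPM in cluster 7, 3.63 CPM in cluster 9 and 99.1 CPM in cluster 6. COL12A1 was at 10.7 and 13.5 CPM in the milk-only clusters 3 and 6 and at most 3.28 CPM in the other 8.

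**Figure D5:**
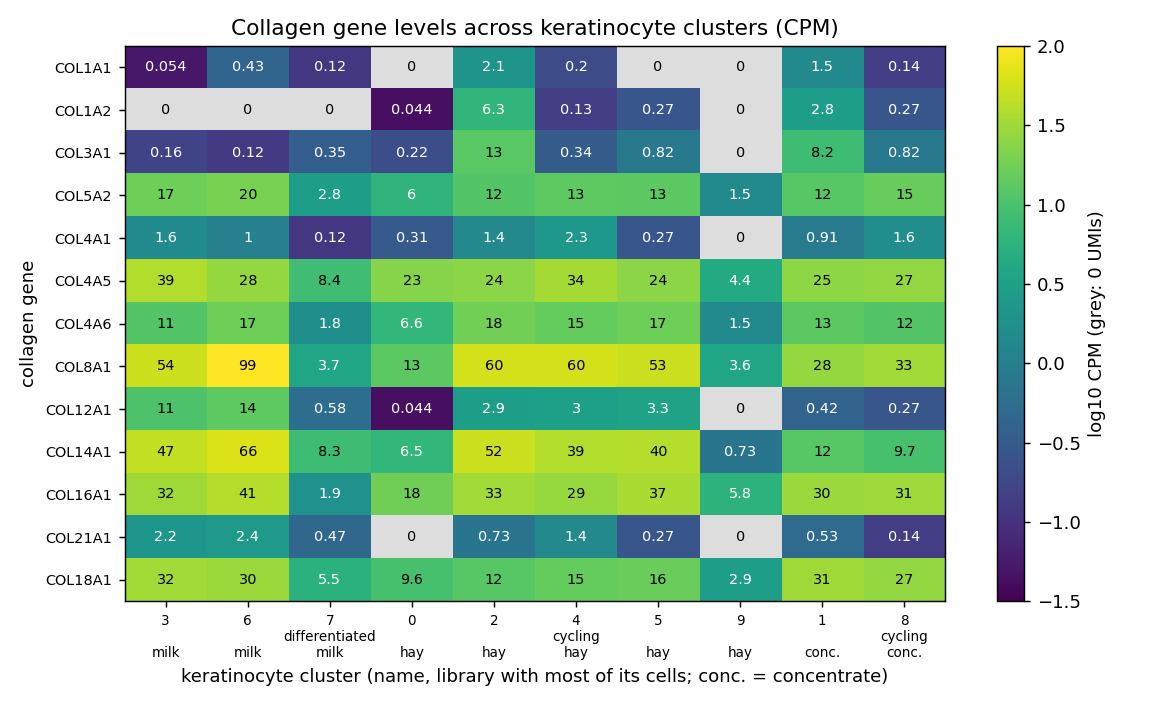
Levels of 13 collagen genes in the 10 keratinocyte clusters, with the library that held most cells of each cluster. Tiles give the CPM and are coloured by log10 CPM, with grey for 0 UMIs. COL8A1 ranged from 3.63 CPM in cluster 9 to 99.1 CPM in cluster 6. In cluster 2, 1 hay cell held 61 UMIs of COL1A2 and 78 of COL3A1.

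Within the milk-only library, the 657 differentiated cells were compared with the other keratinocytes. Of 10 collagen genes measured (at least 1 CPM over the milk-only keratinocytes), 10 were lower and 0 higher in the differentiated cells, where 29.2% of all genes were lower and 7.39% higher. COL4A1 was at 0 UMIs there, against 1.61 CPM in the other cells. COL12A1 was at 0.653 CPM and COL21A1 at 0.523 CPM in the differentiated cells. These 3 genes passed the minimum only through the other keratinocytes, so they could not be counted as higher. The count of lower genes is raised by this selection, and the shares over all genes used the same minimum. COL3A1, under the minimum, was at 0.261 CPM from 2 UMIs against 0.100 CPM. COL8A1 was 18.3-fold lower there (12.9 to 26.8), COL16A1 18.2-fold lower (11.03 to 32.7) and COL12A1 17.6-fold lower (7.49 to 54.4). COL14A1 was 6.22-fold lower (4.89 to 8.02), COL18A1 5.00-fold lower (3.74 to 6.84) and COL4A5 3.80-fold lower (3.001 to 4.89). COL4A6, COL5A2 and COL21A1 were 8.03-fold, 5.99-fold and 4.71-fold lower. KRT15 was at 1013 CPM in cluster 7 and at 9271 and 9623 CPM in clusters 3 and 6.

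Collagen genes also went with COL17A1 in the milk-only library, where differences of at least 2-fold were most frequent, and less so in the other libraries. The differentiated cluster 7, mostly milk-only cells, held COL17A1 at 9.13 CPM, against 89.2 and 136 CPM in clusters 3 and 6. The split by COL17A1 and that of the differentiated cells are therefore not independent. Keratinocytes with a COL17A1 UMI were compared with those without, and 7 of 10 measured collagen genes were higher in the cells with it and 0 lower, where 9.77% of all genes were higher and 2.99% lower. COL4A1 had a ratio of 4.10 (1.94 to 9.96), COL21A1 of 3.40 (1.95 to 6.33) and COL14A1 of 2.54 (2.29 to 2.83). The cells with COL17A1 were deeper, with a median of 13753 against 8109 UMIs. With hay 2 of 9 genes were higher and 0 lower (1.29% and 0.488% of all genes), and the higher ones were COL1A2 and COL3A1, whose UMIs lay mostly in 1 cell that held COL17A1. With concentrate 0 of 11 were higher and 0 lower (1.85% and 0.837% of all genes). Differences under 2-fold were present in these libraries too, with COL4A5 at a ratio of 1.48 (1.31 to 1.68) with hay and 1.54 (1.35 to 1.76) with concentrate. Some genes under the minimum of 1 CPM over the keratinocytes of the library passed 2-fold but were not counted. Among them were COL12A1 with hay (3.73, 1.89 to 7.78) and COL21A1 with concentrate (3.02, 1.03 to 12.1). With concentrate the intervals of COL8A1 (ratio 1.05, 0.953 to 1.17), COL14A1 (1.06, 0.940 to 1.19) and COL3A1 (1.03, 0.819 to 1.31) included 1. COL4A1 went the other way with concentrate, at a ratio of 0.550 (0.314 to 0.963).

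Clusters with at least 50 cells of 2 or more libraries allowed the diets to be set side by side within a cluster. In cluster 4 the milk-only cells were deeper, with a median of 20351.5 UMIs against 8398 (hay) and 9892.5 (concentrate), and at resolution 1.2, 110 milk-only cycling cells formed a cluster with 0 hay and 2 concentrate cells. In the cycling cluster 4, COL14A1 was at 58.7 CPM in 210 milk-only cells, 16.9 CPM in 925 hay cells and 85.5 CPM in 186 concentrate cells. COL8A1 in that cluster was at 91.2, 38.5 and 75.5 CPM, COL12A1 at 7.58, 0.608 and 1.99 CPM, and COL18A1 at 29.0, 8.03 and 11.9 CPM. In cluster 2, COL14A1 was at 24.8 CPM in 1442 hay cells and 99.8 CPM in 811 concentrate cells, and in cluster 5 at 24.6 and 72.3 CPM. COL14A1 in concentrate cells was thus above milk only within cluster 4 and below it over all keratinocytes. In clusters 2, 4 and 5, COL8A1 and COL5A2 were also higher with concentrate than with hay, with COL5A2 at 18.4 against 7.87 CPM in cluster 2. In cluster 0, with 83 concentrate and 3393 hay cells, COL14A1 was at 5.20 and 6.44 CPM. COL8A1 was at 13.0 and 13.2 CPM there and COL5A2 at 6.50 and 5.89 CPM, so cluster 0 did not show these differences.

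Partner genes in keratinocytes also differed between libraries. Against milk only, hay had 5 of 7 cross-linking and fibril partners lower and 0 higher, and concentrate likewise had 5 lower and 0 higher. Over all genes 15.6% were lower and 2.2% higher with hay, and 9.72% lower and 3.86% higher with concentrate. POSTN, a matrix protein of stroma and basal epithelium, was at 26.7 CPM (milk only), 0.200 CPM (hay) and 0.539 CPM (concentrate). Of 8 breakdown genes, 6 were lower and 1 higher with hay, and likewise with concentrate. MMP13, a collagenase, was at 18.0, 0.133 and 0.382 CPM. Of 17 genes for making collagen, 5 were lower in each comparison with milk only and 0 were higher. P3H2, a prolyl hydroxylase of type IV collagen, was at 16.9, 1.198 and 3.84 CPM.

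With hay 3 of 8 basement membrane partners were lower than with milk only, and with concentrate 0 of 8 were higher or lower. LAMB1 was at 50.4 CPM with milk only and 17.9 CPM with hay. Of 6 receptors, 1 was higher and 1 lower with hay against milk only, and 0 of 6 differed 2-fold with concentrate against milk only. ITGA1, an integrin chain that binds type IV collagen, was at 6.65, 3.17 and 6.38 CPM. Concentrate against hay had 4 of 17 making, 4 of 7 partner, 2 of 8 breakdown, 3 of 8 basement membrane and 1 of 6 receptor genes higher, and 0 lower in each list, where 7.44% of all genes were higher and 0.859% lower.

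The 19 collagen genes below both levels had 0 to 46 UMIs each in all kept cells. COL15A1, a basement membrane zone collagen, had 46 UMIs, of which 13 lay in the fibroblast-like cells. COL5A3 had 44 UMIs, 9 of them in the fibroblast-like cells, and COL26A1 had 39 UMIs. COL24A1 had 15, COL23A1 had 9, COL25A1 had 8 and COL4A3 had 7 UMIs. The other 12 of them, COL2A1, COL10A1 and COL22A1 included, had 3 or fewer.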

How the data were processed

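For each of 3 libraries the authors deposited a matrix of raw UMI counts, genes by barcodes. Cell Ranger was used, in version 3.1 per the submitters' processing notes and 5.0.0 per the file headers. For the genome build, annotation and strand setting no label or header gives a name, and no coordinates or sequences are printed. Reads of overlapping genes may be shared, and the neighbours COL5A2 and COL3A1, COL4A1 and COL4A2, COL4A3 and COL4A4, COL4A5 and COL4A6, and COL6A5 and COL6A6 are adjacent in the RefSeq table of ARS-UI_Ramb_v3.0. All 37 symbols matched that table and 0 identifiers did.

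Barcodes were kept as cells at 500 or more genes and a mitochondrial share (13 genes) below 20%, and no doublet caller was run. Counts were scaled to 10000 per cell, and 2000 variable genes without the collagen genes, 30 components and 15 neighbours were used with Leiden clustering at resolution 0.6 (scanpy 1.11.5, leidenalg 0.10.2, Python 3.11.15, numpy 2.4.6, scipy 1.17.1, pandas 2.3.3). A cluster was named when at least 3 markers of a list reached 20 CPM and were 2-fold above other cells (1 CPM added to both), the list with the highest median fold giving the name. Cycling clusters and clusters without a name, all with KRT15, were counted as keratinocytes. Under 3 alternatives a cluster led by CNFN was named neutrophil by its markers and was also counted as keratinocytes. It held 2172 cells at resolution 0.3, 1672 with a mitochondrial maximum of 30% and 119 with at least 1000 genes per cell.

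With 1 library per diet no test was run. Intervals are at 95% and cover counting error only (Poisson for levels, conditional binomial for ratios, Clopper-Pearson for shares, all exact), and a count of 0 was set to 3. The calls were tried on simulated sums of equal depth with counting error alone. Such sums do not show how the calls behave in small classes or where 1 cell holds most UMIs. Values are given for every collagen gene with at least 1 CPM in keratinocytes or 20 UMIs in a stromal class, and for genes with the largest ratio from each of 5 pathway lists (up to 4 by the rule, 2 taken, of which 1 is not reported here). The collagen genes, lists and rules were chosen with earlier results of these data known. Alternatives were other clusterings, filters, scalings, thresholds and sets of keratinocytes. Leaving out the highest fibrillar cell was added after seeing the data.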

Additional observations from a re-analysis of the deposited data

Results flagged for a closer look

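Barcodes that did not pass the cell filters were outside the comparisons. In these, 10 collagen levels of the hay and concentrate libraries lay above those of the milk-only library, with intervals that did not overlap. Only levels above milk only were listed in this way, and the share over all genes was not computed. COL8A1 went the other way with hay, at 5.76 CPM (4.46 to 7.31) against 11.2 CPM (9.39 to 13.2) with milk only. In 4323 concentrate barcodes COL3A1 was at 67.9 CPM (63.8 to 72.2), COL1A2 at 14.3 CPM and COL1A1 at 8.96 CPM, against 0.0810 CPM for each in 3182 milk-only barcodes. COL16A1 was at 34.1 CPM against 13.0 CPM, COL18A1 at 19.4 CPM against 8.99 CPM and COL5A2 at 8.56 CPM against 4.86 CPM. COL4A6 was at 6.83 CPM against 2.84 CPM and COL4A1 at 1.73 CPM against 0.243 CPM. In 2512 hay barcodes COL4A5 was at 19.9 CPM against 12.5 CPM and COL16A1 at 18.6 CPM against 13.0 CPM. Of the 1023 COL3A1 UMIs in the concentrate barcodes, 688 lay in 8 barcodes that failed the gene minimum only. COL1A1, COL1A2 and COL3A1 took 9.83%, 15.7% and 74.5% of their joint UMIs there, against 9.13%, 23.1% and 67.8% in the fibroblast-like cells.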

How the results depend on the processing

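Of 126 main results recomputed under alternatives, 102 stayed within the limits set for a change and 24 moved. The number of collagen genes counted as higher or lower ranged from 4 to 15 for hay against milk only, 0 to 11 for concentrate against milk only, 2 to 9 for concentrate against hay, 15 to 24 for fibroblast-like cells against keratinocytes, 5 to 11 for endothelial-like cells against keratinocytes and 11 to 16 between the stromal classes. Concentrate against milk only counted 3 genes with the collagen genes kept in clustering, without keratinocytes holding a stromal marker UMI, and without the highest fibrillar cell, 0 at a minimum of 10 CPM and 11 with no filter. Hay against milk only counted 4 at a minimum of 10 CPM and 15 with no filter, concentrate against hay counted 2 at a minimum of 10 CPM, and endothelial-like cells against keratinocytes counted 11 with no filter.

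Summed collagen levels in keratinocytes with hay were 114.538 CPM with the collagen genes kept in clustering, 114.541 at resolution 1.2, 122.346 with at least 1000 genes per cell and 113.308 with a mitochondrial maximum of 30%. With milk only these levels were 253.003 and 241.543 CPM under the last 2 settings, and with concentrate 184.617 CPM with the collagen genes kept in clustering. The fibroblast-like level was 49164 CPM with the collagen genes kept, 51510 at resolution 1.2 and 52527.3 in cells of at least 2263 UMIs, where the endothelial-like level was 1711.3 CPM. The T or NK-like level with milk only was 7.49561, 22.7131, 4.34731 and 8.03025 CPM with the collagen genes kept, at resolution 1.2, with at least 1000 genes and with the 30% maximum.

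Of 852 ratios of single collagen and partner genes, 2 that had been counted as higher or lower changed sign, both through a count of 0 set to 3. Ratios that had not been counted also changed sign under several settings, among them COL18A1, COL4A5 and COL5A2 under median-of-ratios scaling. COL4A5 in fibroblast-like cells against keratinocytes was 0.0969 on the log2 scale with at least 1000 genes per cell, and COL1A2 in hay against milk only was -0.559 without keratinocytes holding a stromal marker UMI, where it had 2 UMIs against 0. In all, 50 lost their count, these 2 included. COL14A1 in concentrate against hay fell under 2-fold with at least 1000 genes and without the clusters low in mitochondrial UMIs. The cause was not tested for these. A class of 57 or 59 cells limits what can be seen to levels above 16.7 to 17.7 CPM. No paired analysis was possible because there is 1 library per diet.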
